A study of Homo sapiens with 12 samples.

Results

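FGFR1 and FGFR2 encode receptor tyrosine kinases that bind fibroblast growth factors at the cell surface. Their RNAs were followed here through 12 iCLIP libraries of the human embryonic stem cell line H9. In iCLIP, ultraviolet light fixes proteins to bound RNA, an antibody pulls down 1 of them, and the RNA that comes with it is sequenced, so that each listed position marks a crosslinked nucleotide. The receptors were taken as all listed minus-strand positions of hg19 between 38268656 and 38326352 on chromosome 8 (FGFR1, 57.7 kb) and between 123237844 and 123357972 on chromosome 10 (FGFR2, 120.13 kb). These limits held 2486 of the 1162690 listed positions, 1903 in FGFR1 and 583 in FGFR2. The 2 RNAs were chosen by their FOX2 signal against that of the other proteins, so every comparison between proteins below describes that choice and has no test.

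The libraries carried RNA recovered with antibodies to FOX2 (RBFOX2), TDP43 or hnRNP M from P-KO and from WT cells, with 2 libraries for each protein and genotype; the design text names them biological replicates. Per the labels, P-KO cells are H9 cells whose source name includes SPA. The labels used here do not say what the P-KO cells lack or whether they are 1 clone. Both genotypes are H9 cells, grown per the labels on Matrigel in a defined medium or in fibroblast-conditioned medium with basic fibroblast growth factor, and both were crosslinked with 400 mJ per square centimetre of ultraviolet light.

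As background, both receptor RNAs are alternatively spliced, and the choice between mutually exclusive exons of the third immunoglobulin-like domain decides which growth factors the receptor binds. FOX2 regulates splicing through GCAUG elements, mostly in introns, and its effect on an exon is known to depend on whether it binds upstream or downstream of it. TDP43 binds GU-rich RNA in long introns and represses cryptic exons, and hnRNP M is an abundant nuclear splicing regulator that favours GU-rich elements.

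A count was taken to cover 5 nt on each side of its position. Positions were therefore thinned to windows of 11 nt, and their counts were added (window counts). Lone pairs of positions up to 5 nt apart had equal counts in 38 of 41 cases in FGFR1 and 41 of 43 in FGFR2. A wider cover would give this too, and neighbouring windows would then share counts. Levels are given as CPM, the window counts of a receptor in every 1000000 that its library holds. The deepest library, FOX2 P-KO replicate 2, held 648651 window counts, and the 4 hnRNP M libraries, with 58191 to 123482, lay below every FOX2 and TDP43 library. The plus strand of chromosome 15 from 25 to 26 Mb, where SPA RNAs are made, held 0.0530% to 0.160% of the counts of P-KO libraries and 0.915% to 1.63% of those of WT libraries, so the genotype labels separate there without overlap. Between 79.7% and 95.4% of the window counts of a library lay in positions that the deposited labels give as intronic, and the receptor limits held no window on the opposite strand.

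FGFR1 was the more strongly listed receptor in FOX2 libraries, and FOX2 exceeded TDP43 and hnRNP M there in both genotypes. FGFR1 had 3497 and 4614 CPM in the P-KO libraries of FOX2, against 1925 and 2941 CPM in its WT libraries. For TDP43 it had 991 and 1681 CPM in P-KO, against 1521 and 1636 CPM in WT, and for hnRNP M 419 and 85.9 CPM in P-KO, against 406 and 437 CPM in WT. All FOX2 libraries lay above all TDP43 libraries, and all TDP43 libraries above all hnRNP M libraries. The group means were 4056 ± 790 CPM in FOX2 P-KO, 2433 ± 718 CPM in FOX2 WT, 1336 ± 488 CPM in TDP43 P-KO, 1578 ± 81.5 CPM in TDP43 WT, 253 ± 236 CPM in hnRNP M P-KO and 422 ± 22.4 CPM in hnRNP M WT (SD, n = 2 each). The ratio of FOX2 to TDP43 means was 3.04 in P-KO cells and 1.54 in WT cells, and that of FOX2 to hnRNP M was 16.1 in P-KO cells and 5.77 in WT cells. With intron positions alone, FOX2 exceeded TDP43 by 2385 CPM in P-KO cells and 470 CPM in WT cells, against 2720 CPM in P-KO cells and 854 CPM in WT cells over all positions. The hnRNP M values rest on 26 and 5 window counts in P-KO and on 25 and 54 in WT. Their 95% Clopper-Pearson intervals, which cover counting error only, ran from 27.9 to 201 CPM in P-KO replicate 2 and from 329 to 571 CPM in WT replicate 2.

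FGFR2 was listed at lower levels than FGFR1 in every FOX2 and TDP43 library and at higher levels in 3 of the 4 hnRNP M libraries, so its order of proteins was another. FGFR2 had 517 and 694 CPM in the P-KO libraries of FOX2, against 343 and 395 CPM in its WT libraries. For TDP43 it had 446 and 246 CPM in P-KO, against 260 and 233 CPM in WT, and for hnRNP M 339 and 705 CPM in P-KO, against 925 and 543 CPM in WT. Within each genotype both FOX2 libraries lay above both TDP43 libraries, by a ratio of means of 1.75 in P-KO cells and 1.50 in WT cells, but FOX2 WT and TDP43 P-KO libraries overlapped. Against hnRNP M the FOX2 mean was 1.16 times as high in P-KO cells, with overlapping libraries, and 0.503 times as high in WT cells, where both FOX2 libraries lay below both hnRNP M libraries. Group means were 605 ± 125 CPM for FOX2 and 522 ± 259 CPM for hnRNP M in P-KO cells, and 369 ± 36.8 CPM for FOX2 and 734 ± 270 CPM for hnRNP M in WT cells (SD, n = 2 each). The hnRNP M values come from 21 and 41 window counts in P-KO and 57 and 67 in WT, in 3, 9, 6 and 19 windows.

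**Figure D1:**
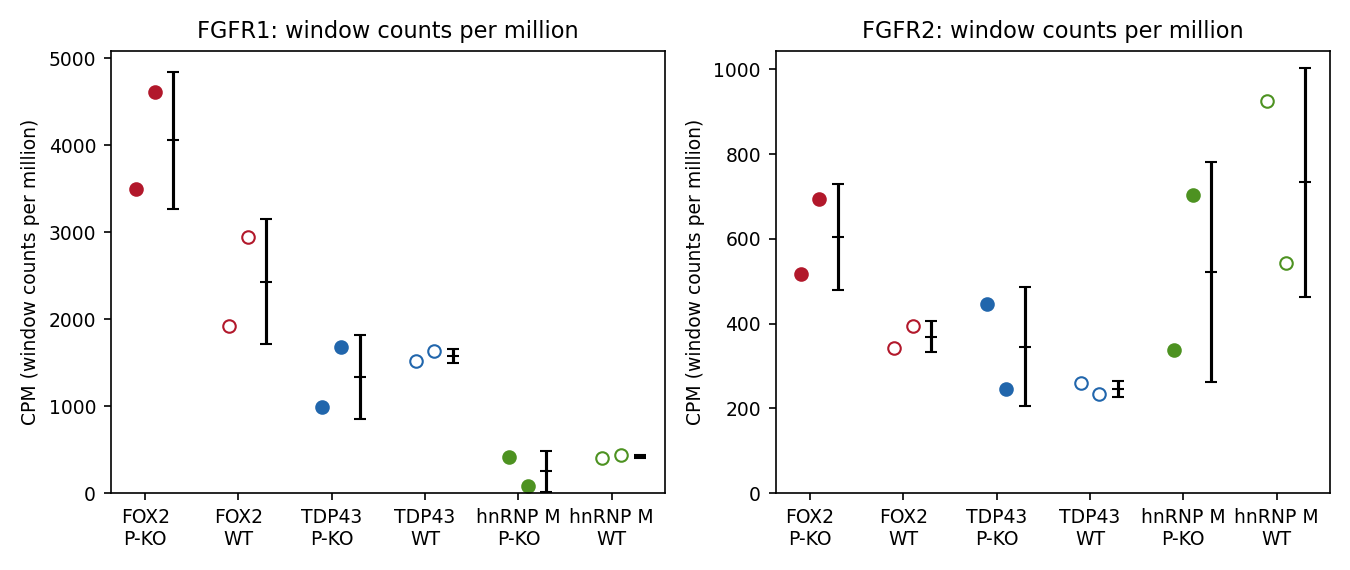
Level of each receptor RNA in CPM (linear axes from 0) for each protein and genotype. Points are single libraries (filled P-KO, open WT) and the black mark beside them is the mean ± SD of 2 libraries; FGFR1 has its highest points in FOX2 P-KO (3497 and 4614 CPM), and FGFR2 its highest point in hnRNP M WT (925 CPM).

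Per kilobase of RNA, FGFR1 was listed above FGFR2 in every FOX2 and TDP43 library. FGFR1 averaged 70.3 ± 13.7 CPM per kb in FOX2 P-KO and 42.2 ± 12.5 in FOX2 WT, and FGFR2 averaged 5.04 ± 1.04 and 3.07 ± 0.306 CPM per kb in the same 2 groups. The ratio of FGFR1 to FGFR2 per kb was 14.1 and 13.8 for FOX2 in P-KO cells, against 11.7 and 15.5 in WT cells. For TDP43 it was 4.62 and 14.2 in P-KO cells, against 12.2 and 14.6 in WT cells, and for hnRNP M 2.58 and 0.254 in P-KO cells, against 0.913 and 1.68 in WT cells. Of the 4 TDP43 libraries 3 fell in the FOX2 range, and no hnRNP M library did. Since iCLIP counts follow RNA abundance as well as binding, a ratio between the receptors holds both, and abundance was not measured here.

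FOX2 on FGFR1 was packed into an intron and the exon next to it. The span of the positions labelled intron 10 of ENST00000397113.2, from 38278480 to 38279314, held 540 and 1995 window counts of FOX2 in P-KO cells, against 289 and 575 in WT cells. TDP43 had 7 and 0 there in P-KO cells, against 0 and 10 in WT cells, and hnRNP M had 0 and 2 in P-KO cells, against 0 and 4 in WT cells. For FOX2 that was 66.6% ± 0.109 of all FGFR1 counts in FOX2 P-KO and 68.2% ± 0.650 in FOX2 WT (SD, n = 2 each). The minus strand is transcribed toward lower coordinates, so this intron lies just downstream of the positions labelled as exonic from 38279315 to 38279449. The deposited numbers count introns from the 3′ end of these genes: where 1 transcript had positions in 2 introns, the higher number lay at the higher coordinate in 36 of 36 FGFR1 pairs and 60 of 60 FGFR2 pairs. The exon itself held 153 and 463 window counts in FOX2 P-KO and 56 and 115 in FOX2 WT, and at most 6 in any TDP43 or hnRNP M library.

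TDP43 lay upstream of the same exon. The introns from 38279466 to 38281873 held 79 and 289 window counts in TDP43 P-KO and 136 and 213 in TDP43 WT, or 52.5% ± 8.87 of its FGFR1 counts in P-KO and 44.5% ± 2.10 in WT (SD, n = 2 each), while FOX2 had 8.45% ± 3.59 of its counts there in P-KO and 7.57% ± 0.290 in WT. Most of the rest of TDP43 was in the long intron 16 of ENST00000425967.3, from 38290203 to 38314785, with 60 and 192 window counts in P-KO and 165 and 228 in WT (37.1% ± 2.78 in P-KO and 50.7% ± 2.10 in WT). FOX2 had 3.79% ± 0.393 of its counts in that intron in P-KO and 6.03% ± 1.47 in WT. For hnRNP M the long intron held 26 and 3 window counts in P-KO and 2 and 27 in WT. The highest site of each FOX2 library was downstream of the exon and that of each TDP43 library upstream of it. These stretches were delimited after the positions had been seen, and the split is given as a description. Every window between the limits of a stretch was counted, whatever its label.

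**Figure D2:**
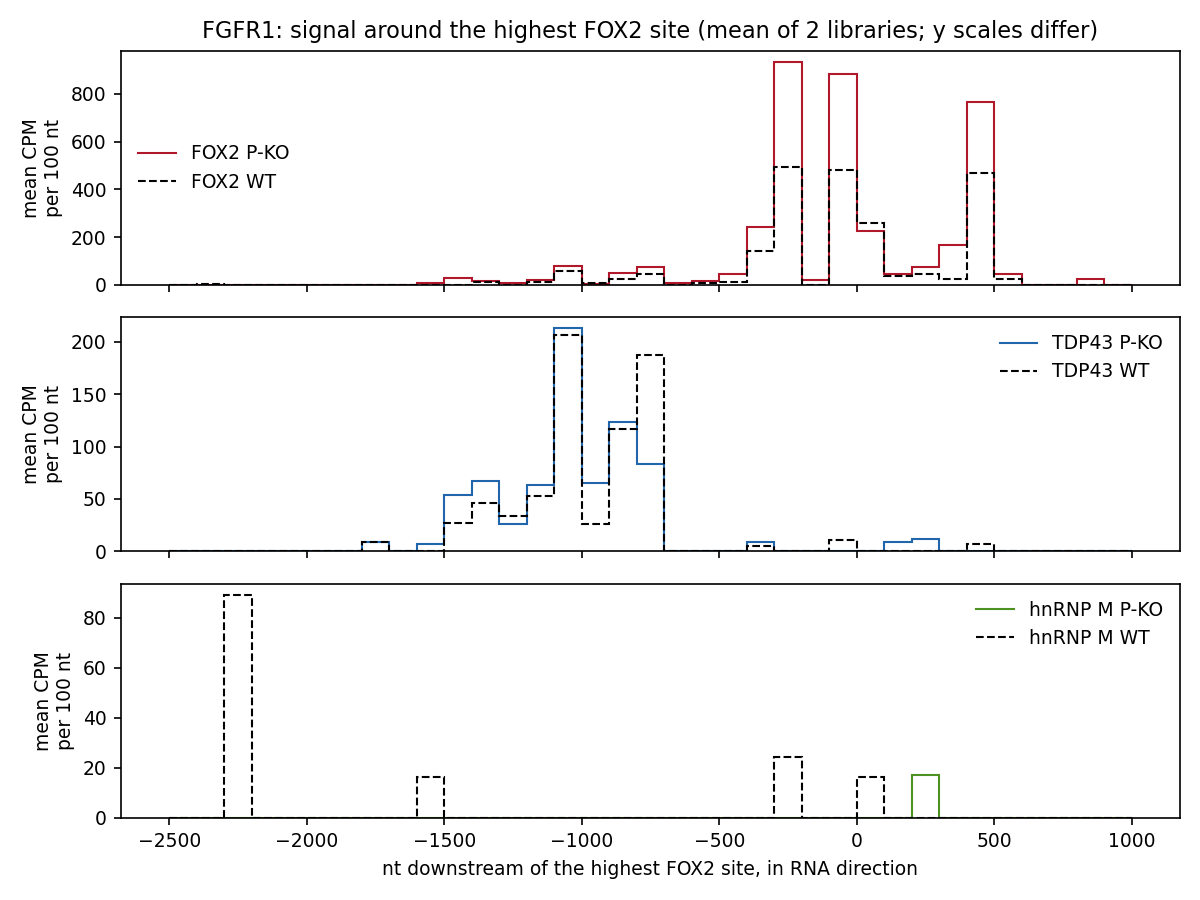
FGFR1 signal in steps of 100 nt (mean CPM of 2 libraries) against the distance in nt downstream of the highest FOX2 site, in RNA direction, for FOX2, TDP43 and hnRNP M (top to bottom, y scales differ). Coloured solid lines are P-KO and black dashed lines WT. FOX2 is highest around that site, at the boundary of exon and intron upstream of it, and up to 475 nt downstream. TDP43 lies further upstream.

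**Figure D3:**
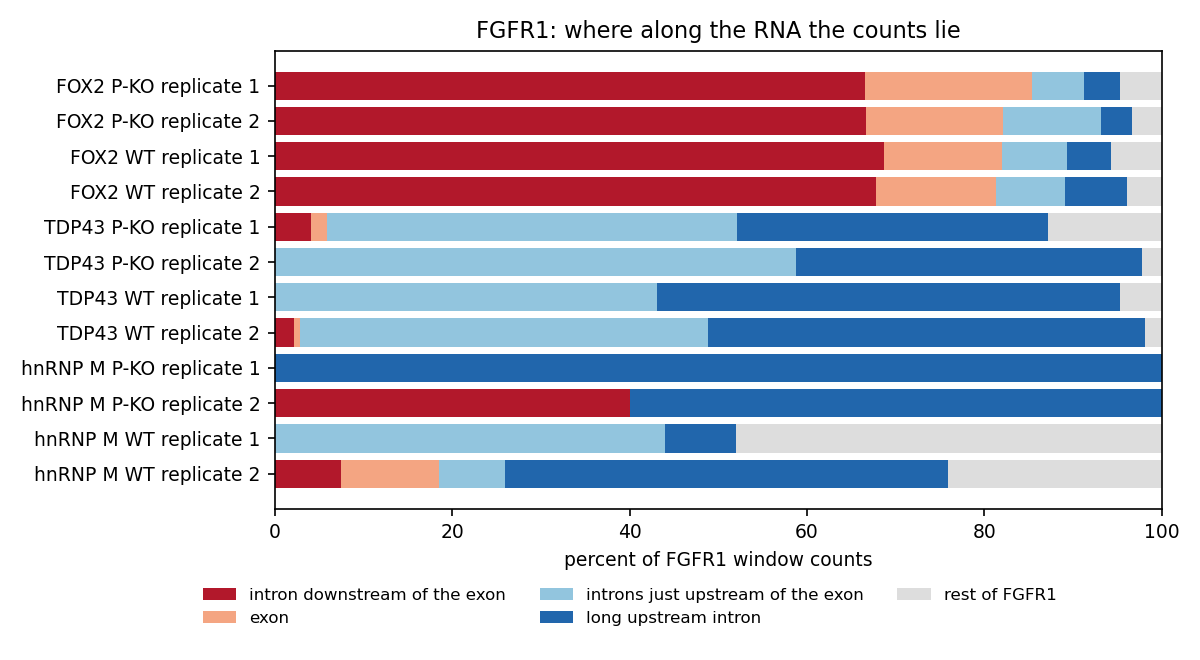
Percent of each library's FGFR1 window counts in the intron downstream of the exon, the exon, the introns just upstream of it, the long upstream intron and the rest of FGFR1. The 4 FOX2 libraries have about the same makeup, with 66.6% and 68.2% in the downstream intron in P-KO and WT; the hnRNP M bars rest on 5 to 54 counts each.

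Windows that overlapped in any library were joined into sites, 244 in FGFR1, of which 220 were intronic, 22 exonic and 2 both. FOX2 was listed at 130 of them, 110 wholly intronic, TDP43 at 131, 124 wholly intronic, and hnRNP M at 22. FOX2 and TDP43 shared 32 sites, 24.6% of the FOX2 sites and 24.4% of the TDP43 sites. Sites in all 4 libraries of a protein numbered 9 for FOX2 and 7 for TDP43, with 2 common to both sets, and no hnRNP M site was in more than 1 library. Pairs of hnRNP M libraries also shared few windows over whole libraries (0.507% to 2.11% of the smaller set). The 9 FOX2 sites held between 65.7% and 77.8% of the FGFR1 counts of each FOX2 library. Of the sites, 167 were in 1 library alone, 28 of them in the deepest, FOX2 P-KO replicate 2.

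The highest FGFR1 site, from 38279015 to 38279072, lay 243 nt downstream of the last exonic position listed. FOX2 had 210 and 703 window counts there in P-KO cells, against 101 and 236 in WT cells, or 994 ± 127 CPM in P-KO and 640 ± 252 CPM in WT (SD, n = 2 each). TDP43 was listed there only in WT replicate 2, with 6 counts, and hnRNP M only in WT replicate 2, with 4. A second intronic site, from 38278577 to 38278615 and 700 nt downstream of the exon, had 154 and 240 counts in FOX2 P-KO and 72 and 84 in FOX2 WT, and it adjoins a smaller one from 38278561 to 38278576 with 17 and 71 against 9 and 18.

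The boundary of exon and intron was itself a FOX2 site. From 38279284 to 38279350 it had 147 and 544 counts in FOX2 P-KO and 38 and 156 in FOX2 WT, with 3 counts in TDP43 P-KO replicate 1 and 6 in hnRNP M WT replicate 2. The site next to it inside the exon, from 38279353 to 38279402, had 47 and 134 counts in FOX2 P-KO, 29 and 38 in FOX2 WT and none in the other proteins' libraries. Close by in the intron, from 38279237 to 38279268, FOX2 P-KO had 30 and 160 counts and FOX2 WT 31 and 26.

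Upstream of the exon, FOX2 and TDP43 met at the same sites, with TDP43 mostly the higher. From 38279836 to 38279908, 387 nt upstream of the exonic positions, FOX2 had 16 and 49 counts in P-KO and 3 and 13 in WT, and TDP43 had 29 and 32 in P-KO and 57 and 35 in WT. In CPM that was 72.2 ± 4.69 for FOX2 and 139 ± 41.5 for TDP43 in P-KO cells, and 29.4 ± 22.1 for FOX2 and 199 ± 107 for TDP43 in WT cells (SD, n = 2 each). From 38280054 to 38280069 FOX2 had 6 and 41 counts in P-KO and 8 and 19 in WT, against 3 and 52 in TDP43 P-KO and 21 and 40 in TDP43 WT. In CPM that was 44.5 ± 26.4 for FOX2 and 97.5 ± 113 for TDP43 in P-KO cells, where FOX2 was the higher in replicate 1 (25.8 against 17.4 CPM), and 51.2 ± 20.7 for FOX2 and 121 ± 28.5 for TDP43 in WT cells (SD, n = 2 each). These were the 2 sites listed in all 8 FOX2 and TDP43 libraries. A further site, from 38279781 to 38279804, was in all 4 FOX2 libraries with 5 and 25 counts in P-KO and 3 and 7 in WT, and in 3 TDP43 libraries, with TDP43 P-KO replicate 1 not listed.

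The TDP43 site of FGFR1 with the highest summed count was far upstream in the long intron, from 38309699 to 38309749. It had 6 and 44 counts in TDP43 P-KO, 63 and 46 in TDP43 WT and none in a FOX2 or hnRNP M library. In CPM its TDP43 means were 92.5 ± 81.7 in P-KO and 233 ± 99.4 in WT (SD, n = 2 each), so in P-KO it lay below the site from 38279836 (139 ± 41.5 CPM). The highest hnRNP M signal was at 2 sites of this intron, from 38290530 to 38290540 and from 38312116 to 38312126, each with 13 counts in P-KO replicate 1 and in no other library.

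On FGFR2 most of the FOX2 signal of P-KO cells lay in the stretch spanned by 1 long intron label, at sites of few counts. This stretch ran from 123276335 to 123297940, between the first and last positions labelled intron 10 of ENST00000369061.4. All windows inside it were counted whatever their label, and it covers the exonic positions named below. It held 94 and 310 window counts of FOX2 in P-KO cells, against 32 and 34 in WT cells. TDP43 had 16 and 22 there in P-KO cells, against 21 and 29 in WT cells, and hnRNP M had 8 and 9 in P-KO cells, against 22 and 24 in WT cells. In CPM, FOX2 had 441 ± 51.6 in P-KO and 132 ± 20.2 in WT (SD, n = 2 each), and both P-KO libraries lay above both WT libraries, as they did for 16.8% of all tested features. The stretch was delimited after the positions had been seen and the tested features were not, so that share is no like-for-like background. The stretch made up 73.6% ± 6.68 of the FGFR2 counts of FOX2 P-KO and 36.2% ± 9.08 of those of FOX2 WT. For TDP43 the shares were 25.7% ± 6.91 in P-KO and 41.4% ± 3.57 in WT, and for hnRNP M 30.0% ± 11.4 in P-KO and 37.2% ± 1.96 in WT. Much of the remainder lay in other introns, with up to 7 window counts of a library at exonic positions. The stretch of intron 14 of the same transcript, from 123326718 to 123353000, held 9 and 72 counts in FOX2 P-KO and 3 and 49 in FOX2 WT, and 31 and 25 in TDP43 P-KO and 9 and 14 in TDP43 WT. In FOX2 WT replicate 2 this stretch held more than that of intron 10 (49 against 34).

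Joined sites of FGFR2 numbered 227, of which 219 were intronic and 8 exonic, and 195 were in 1 library alone. FOX2 was listed at 124, TDP43 at 80 and hnRNP M at 36. FOX2 and TDP43 shared 9, which is 7.26% of the FOX2 sites and 11.3% of the TDP43 sites. Only 2 sites were in all 4 FOX2 libraries, with 9.65% to 20.7% of the FGFR2 counts of each, and no site was in all 4 TDP43 libraries. FOX2 P-KO replicate 2 alone gave 40 of the sites.

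The higher of these 2 sites, from 123277175 to 123277225, had 14 and 62 counts in FOX2 P-KO and 6 and 6 in FOX2 WT, with 7 counts in TDP43 WT replicate 1 and 4 in hnRNP M WT replicate 2. The other, from 123276260 to 123276300, had 4 and 31 counts in FOX2 P-KO and 3 and 5 in FOX2 WT, with 4 in hnRNP M P-KO replicate 2. They flank 5 positions from 123276849 to 123276880 that ENST00000357555.5 labels without an intron number, one 295 nt upstream and the other 549 nt downstream. Those exonic positions were listed in 2 libraries, FOX2 P-KO replicate 2 and FOX2 WT replicate 1, with counts of at most 3. Without an hg19 annotation the exon was not assigned to either of the mutually exclusive exons.

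The other high FGFR2 sites were not in every FOX2 library. From 123278053 to 123278065 there were 23 and 26 counts in FOX2 P-KO, 6 in FOX2 WT replicate 1 and none in WT replicate 2 or in another protein's library. From 123277122 to 123277152 there were 11 and 33 counts in FOX2 P-KO, 3 in FOX2 WT replicate 2 and 10 in hnRNP M WT replicate 1. The highest TDP43 site, from 123350478 to 123350492, had 7 counts in P-KO replicate 2 and 3 in WT replicate 2, and the highest hnRNP M site, from 123283005 to 123283015, had 12 counts in WT replicate 1.

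**Figure D4:**
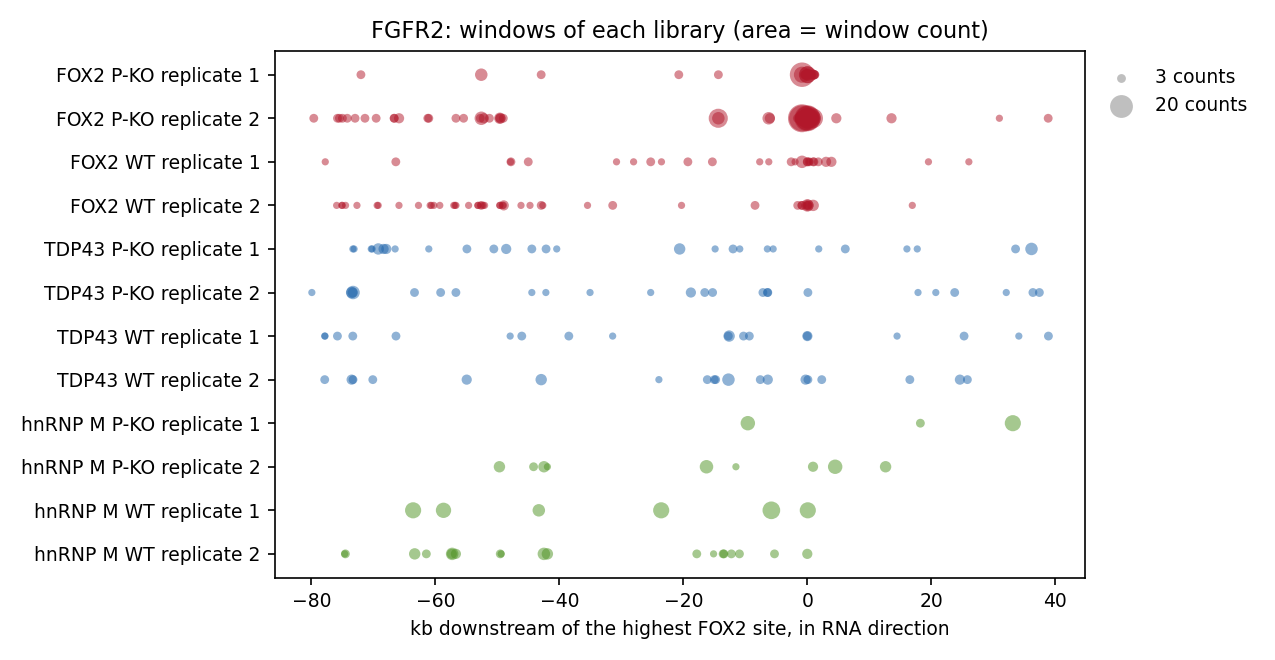
Windows of each library along FGFR2, as kb downstream of the highest FOX2 site in RNA direction; the area of a point is its window count. FOX2 P-KO libraries have their largest points within 1 kb of that site, where window counts reach 30, and the points of TDP43 and hnRNP M libraries are scattered along the RNA.

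**Figure D5:**
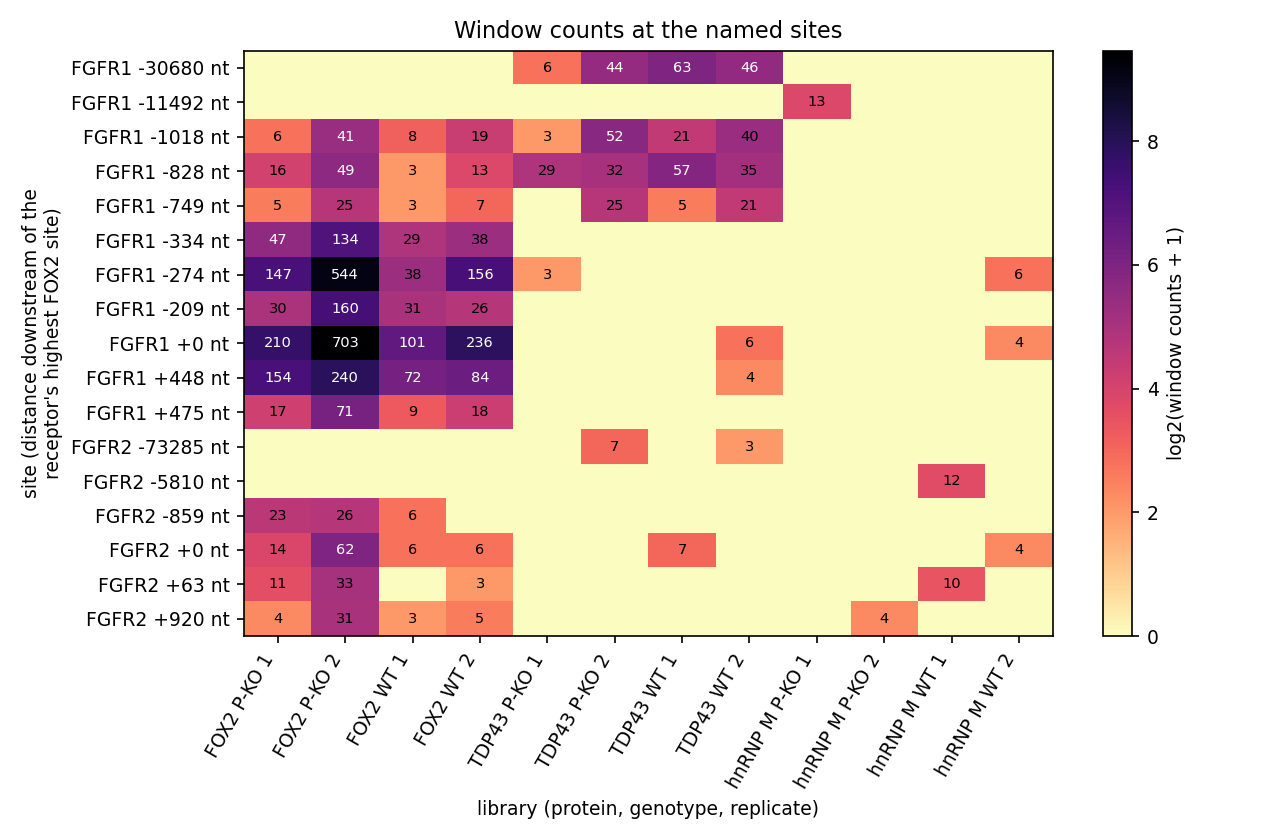
Window counts at the named sites (rows, by distance in nt downstream of the receptor's highest FOX2 site) in the 12 libraries (columns); colour is log2(window counts + 1) and cells without a number are sites not listed. The highest FGFR1 site reaches 703 counts in FOX2 P-KO replicate 2, while FGFR2 sites reach 62.

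FOX2 and TDP43 replicates listed the same windows more often in FGFR1 than in FGFR2. Of the smaller set of FGFR1 windows, 69.8% overlapped between the FOX2 P-KO replicates and 45.0% between the FOX2 WT replicates, against 59.1% in P-KO and 7.41% in WT on FGFR2. For TDP43 replicates the values were 31.0% in P-KO and 48.9% in WT on FGFR1, against 8.33% in P-KO and 5.26% in WT on FGFR2. Replicates of hnRNP M shared no window on either receptor, where the smaller sets held 2 windows in P-KO and 3 in WT on FGFR1, and 3 and 6 on FGFR2. Over whole libraries they shared 0.596% in P-KO and 1.49% in WT, so the absence is not read as particular to the receptors. Over all 6 pairs of FOX2 libraries, within and across genotypes, a median of 58.8% of the smaller set of FGFR1 windows overlapped (45.0% to 69.8%), against 20.6% in FGFR2 (7.41% to 59.1%) and 11.9% over whole libraries (6.80% to 24.4%). Over the 6 pairs of TDP43 libraries the medians were 41.1% in FGFR1, 5.26% in FGFR2 and 7.58% over whole libraries. FOX2 and TDP43 libraries overlapped by a median of 16.9% in FGFR1, 6.80% in FGFR2 and 2.03% over whole libraries. Receptor windows of FOX2 on FGFR1 have higher counts than the library average (18.9 and 28.8 counts per window in P-KO, 10.5 and 13.3 in WT, against whole-library means of 3.84 and 5.76 in P-KO and 2.76 and 2.93 in WT), and its part in the overlap was not tested.

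FGFR1 also stood high among all stretches of RNA, which for FOX2 describes the choice of these RNAs and has no test. The 10 kb stretch of chromosome 8 from 38270001 to 38280000 had 764 and 2658 window counts in FOX2 P-KO and 373 and 728 in FOX2 WT, which ranked it 12th and 8th in P-KO and 9th and 6th in WT among 30712 to 45179 stretches with signal. In the TDP43 libraries the rank of this stretch was between 78 and 137. Taken whole, as 1 feature longer than the 10 kb of the others, FGFR1 ranked 6 to 9 of 10551 tested features in FOX2 libraries and 11 to 18 in TDP43 libraries, so it stood high in both. The 10 kb of FGFR2 from 123270001 to 123280000 ranked 258 and 245 in the P-KO libraries of FOX2, against 336 and 627 in the WT libraries. This stretch, which holds the highest FOX2 site of FGFR2, ranked 4200 to 21514 in TDP43 libraries. It ranked 505 to 9012 in hnRNP M libraries that listed it, and was not listed in P-KO replicate 1. Taken whole, as 1 feature of 120.13 kb among others of 10 kb, FGFR2 ranked 141 to 222 in FOX2 libraries, 40 to 218 in TDP43 libraries and 13 to 153 in hnRNP M libraries. The part of length in these ranks was not tested.

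The comparison of P-KO with WT cells, which the choice of these RNAs did not use, found no change of either receptor past the threshold. It used edgeR's quasi-likelihood test over 10551 strand-specific features (10 kb stretches, with each receptor as 1 feature), with Benjamini-Hochberg adjustment and a threshold of 0.05. In FOX2 libraries FGFR1 had a log2 fold change of 0.91 (SE 1.34, adjusted p = 1) and FGFR2 one of 0.91 (SE 1.31, adjusted p = 1), where 2 features (0.019%) were called. In CPM, both P-KO libraries lay above both WT libraries for each receptor, which was so for 1770 features (16.8%). The FOX2 P-KO mean was 1.67 times the WT mean for FGFR1 and 1.64 times for FGFR2. The median log2 fold change of all features was -0.21.

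Counts per window were higher in FOX2 P-KO on both receptors. Each FGFR2 window held on average 5.45 and 6.92 counts in FOX2 P-KO, against 2.78 and 2.48 in FOX2 WT, and the whole FOX2 libraries moved the same way, with means of 3.84 and 5.76 in P-KO and 2.76 and 2.93 in WT. Its part in the difference was not tested. When the number of windows per feature was tested in place of the counts, the log2 fold change was -0.03 for FGFR1 (adjusted p = 0.998, edgeR) and -0.30 for FGFR2 (adjusted p = 0.812, edgeR). That fit tested 1190 features, whose median FOX2 log2 fold change was 0.23, so its values are not like-for-like with those of the counts. Leaving out the deepest library, FOX2 P-KO replicate 2, lowered the log2 fold change to 0.38 for FGFR1 and 0.36 for FGFR2. With the FOX2 libraries fitted alone, it was 0.20 (SE 0.427) for FGFR1 and 0.18 (SE 0.401) for FGFR2.

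TDP43 and hnRNP M gave no called change either. In TDP43 libraries the log2 fold change was -0.29 for FGFR1 (SE 1.33, adjusted p = 1) and 0.31 for FGFR2 (SE 1.31, adjusted p = 1), with 3 features (0.0284%) called. In hnRNP M libraries it was -1.37 for FGFR1 (SE 1.39, adjusted p = 0.772) and -0.73 for FGFR2 (SE 1.32, adjusted p = 1), with 5 features (0.0474%) called. With a genotype effect common to the 3 proteins it was -0.23 for FGFR1 (SE 0.817, adjusted p = 1) and 0.17 for FGFR2 (SE 0.811, adjusted p = 1), with 13 features (0.123%) called.

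Tests of other forms gave no call for the receptors. An exact permutation test of log2 CPM with genotype permuted within each protein, two-sided, gave a mean difference of -0.23 for FGFR1 (p = 0.778) and 0.20 for FGFR2 (p = 0.537), where the smallest possible p was 0.00926. The genotype effect did not differ between the 3 proteins past the threshold in edgeR's F test of the interaction (adjusted p = 0.913 for FGFR1 and 1 for FGFR2, with 0 features called of 10551 and 512 at an unadjusted p under 0.05). With the 10 kb stretches of the receptors kept apart, 5 of the 6 stretches of FGFR1 and 9 of the 13 of FGFR2 were tested and none was called in a comparison. The stretch of FGFR2 from 123270001 to 123280000, which holds its highest FOX2 site, had a FOX2 log2 fold change of 1.90 (SE 1.38, edgeR, adjusted p = 1). In the hnRNP M comparison 1 stretch of FGFR1 and 2 of FGFR2 had an unadjusted p under 0.05, each with an adjusted p of 0.400 (edgeR). In all 3 the P-KO libraries were listed at 0, against 11 and 14 window counts in WT from 38280001 in FGFR1, and 9 and 17 from 123330001 and 10 and 5 from 123340001 in FGFR2. The FGFR1 stretch from 38270001, at an unadjusted p of 0.0732, had the same adjusted p (edgeR). The share of all tested stretches under 0.05 in the hnRNP M comparison is not given here, so these 3 are not read as particular to the receptors. No stretch had an unadjusted p under 0.05 in the FOX2, TDP43 or common comparison.

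Stretches of RNA whose log2(CPM + 1) followed the receptors most closely over the 12 libraries were found by Pearson's r among 10549 tested stretches. Proteins differ in level, and that difference enters the r values, so they are given without a p. How much of r comes from it, and how much from differences between libraries of 1 protein, was not tested. For FGFR1 the closest were the 10 kb from 59880001 on chromosome 20, plus strand, in intron 2 of ENST00000360469.5 (r = 0.925), from 126610001 on chromosome 9, minus strand, in intron 20 of ENST00000373624.2 (r = 0.924) and from 56040001 on chromosome 18, plus strand, mostly in intron 22 of ENST00000356462.6 (r = 0.922). All 3 were listed at 0 in every hnRNP M library. For FGFR2 they were the 10 kb from 6110001 on chromosome X, minus strand, in intron 5 of ENST00000381095.3 (r = 0.902), from 1420001 on chromosome 16, minus strand (r = 0.880) and from 126790001 on chromosome 10, minus strand, mostly in intron 9 of ENST00000337195.5 (r = 0.873). Each was listed in hnRNP M WT libraries.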

How the data were processed

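Bowtie and the build GRCh37 (hg19) are named in the submitters' processing notes; the caller of positions is not given in the sources used here. Each library has 1 list that the authors deposited, in which every position has an unnormalized count; its last column is a p-value or a q-value per the deposited values, and which is not stated; no count was below 2 and no listed value above 0.05. Whether counts are reads or cDNAs collapsed by barcode is not stated, so intervals cover counting error only. The most frequent listed count was 3 in FOX2 P-KO libraries and 2 in FOX2 WT and TDP43 libraries. In hnRNP M libraries it was 9 and 5 in P-KO replicates 1 and 2, and 9 and 3 in WT. The counts at which positions were commonly listed thus differed between libraries, also between hnRNP M replicates. Their part in what was not listed was not tested. Absent positions are described as not listed, with no upper limit.

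Windows were kept from the highest count downwards, at least 11 nt apart on a strand. Features were strand-specific 10 kb stretches, with each receptor merged. edgeR 4.0.16 (R 4.3.3) used filterByExpr, TMM and 1 mean per protein and genotype over all 12 libraries (biological coefficient of variation 1.08); standard errors are the fold change over the root of F. DESeq2 1.42.0, other normalization, filters, position sets and left-out libraries were alternatives. Sites are windows joined where they overlap by at least 1 nt. Named sites are those in all 4 FOX2 libraries, the 3 highest per receptor and the highest of TDP43 and hnRNP M. Replicates differed beyond sampling noise (chi-square per degree of freedom 4.09 to 9.22). The edgeR fits were tested on simulated counts with a smaller spread than the data and larger changes than those of the receptors. That test therefore does not show whether changes of the receptors' size could be found here. Python 3.11.15 with scipy 1.17.1 was used elsewhere. The members, lists and tests were chosen with earlier results of these data known. Pathway genes and sequences at the sites were not analysed here, since no hg19 genome or gene names for the transcripts were used.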

Additional observations from a re-analysis of the deposited data

How the results depend on the processing

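None of the 174 alternative fits of the genotype effect brought a receptor past the threshold (lowest adjusted p 0.474, lowest unadjusted p 0.0663). The sign turned for the number of windows, with log2 fold changes of -0.025 for FGFR1 and -0.30 for FGFR2 in FOX2 and -0.11 for FGFR2 common to the proteins. It also turned for FGFR1 in TDP43 without P-KO replicate 1 (0.25), for FGFR1 common to the proteins without hnRNP M P-KO replicate 2 (0.03) or WT replicate 2 (0.16), and for FGFR2 common without FOX2 P-KO replicate 2 (-0.10) or WT replicate 1 (-0.0072). Leave-one-out ranges were 0.38 to 1.54 and 0.36 to 1.49 in FOX2 (FGFR1, then FGFR2), -0.98 to 0.25 and 0.17 to 0.56 in TDP43, -2.80 to -0.43 and -1.89 to -0.34 in hnRNP M, and -0.57 to 0.16 and -0.10 to 0.42 in common. With the FOX2 libraries fitted alone, FGFR1 had 0.20 and FGFR2 0.18, below these FOX2 ranges. At a p or q of at most 0.01 the FOX2 value was 0.21 for FGFR1 and 1.34 for FGFR2. The counts of features called in all of the table moved to 11 with DESeq2, 8 without TMM, 9 with the replicate block and 6 with intron positions alone in FOX2 (2 in the fit reported), to 7 with DESeq2 in TDP43 (3) and to 21 with DESeq2 in hnRNP M (5). With the number of windows, where 1190 features were tested, 16 were called in FOX2, 8 in TDP43 and 7 in hnRNP M. The median of all FOX2 log2 fold changes, -0.21, was -0.38 without TMM, -0.63 with DESeq2 and 0.23 with the number of windows.

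Same-numbered replicates had little in common: over 15 pairs of groups the correlation of same-numbered deviations was 0.00475 to 0.132, median 0.0268. These values are small but all positive, so they do not show that the samples were unpaired. With the replicate block the log2 fold changes of FGFR1 and FGFR2 were 0.92 and 0.88 in FOX2 and -0.38 and 0.35 in TDP43. They were -1.09 and -0.79 in hnRNP M and -0.16 and 0.16 in common. Neither receptor was called. Over all features the calls rose from 2 to 9 in FOX2 and from 5 to 7 in hnRNP M, and stayed at 3 in TDP43 and 13 in common.

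With all listed positions summed, which counts overlapping windows repeatedly, FGFR1 FOX2 exceeded TDP43 by 6622 CPM in P-KO (2720 in the windows reported) and 4027 in WT (854), and hnRNP M by 8519 in P-KO (3803) and 6258 in WT (2011). At a p or q of at most 0.01 the difference from hnRNP M was 4861 CPM in P-KO and 3254 in WT. For FGFR2 in WT the FOX2 minus TDP43 difference of 122 CPM became -91.2 at that limit; the cause was not tested. FGFR2 FOX2 minus hnRNP M in P-KO, 83.7 CPM, was -4.71 without FOX2 P-KO replicate 2 and -99.3 without hnRNP M P-KO replicate 1. Leave-one-out ranges in CPM for FOX2 minus TDP43 were 2162 to 3278 (FGFR1 P-KO), 346 to 1362 (FGFR1 WT), 159 to 359 (FGFR2 P-KO) and 96.3 to 148 (FGFR2 WT), and for FOX2 minus hnRNP M 3245 to 4362, 1503 to 2519, -99.3 to 267 and -556 to -174 in the same order. Sites in all 4 FOX2 libraries numbered 14 in FGFR1 (9) and 1 in FGFR2 (2) when 6 nt had to overlap, and 0 in FGFR2 at a p or q of at most 0.01. With 1 library left out they ranged from 9 to 13 in FGFR1 and from 1 (without FOX2 P-KO replicate 2) to 4 (without FOX2 WT replicate 1) in FGFR2. Depth limits hnRNP M most, with 5 to 67 window counts per receptor and library.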
